A study of Homo sapiens with 24 samples.

Results

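A set of 44 genes of DNA repair and checkpoint signalling was followed through CDK4/6 inhibition and fulvestrant treatment in ER-negative breast cancer cells. They were taken by name, from a list of repair genes drawn up with earlier results of these data known, and all 44 were found among the 59609 gene names of the count table. They comprise BRCA1, BRCA2 and their partners, the paralogs and cofactors of the recombinase that BRCA2 loads, the end resection and junction genes, the Fanconi pathway, mismatch repair, end joining with PARP1, and the checkpoint kinases. MDA-MB-231, a mesenchymal line grown in RPMI-1640 with serum, and MDA-MB-453, grown in DMEM with serum, were kept for 5 days in DMSO, in abemaciclib at 500 nM (an inhibitor of CDK4 and CDK6), in fulvestrant at 5 nM (a selective ER degrader) or in both drugs, with 3 libraries for each of the 8 groups. Each line is an established culture of its own lineage and differs from the other in medium, so a difference between them is a difference between these cultures. The study's reporting form gives the 3 libraries as biological replicates of 1 experiment per line, and P values therefore measure the spread within that experiment.

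Cells repair a chromosome break either by joining its ends or by copying the sister chromatid. Joining uses the Ku proteins and DNA-PK, and copying uses end resection, BRCA1, BRCA2 and the recombinase, mostly in S and G2 phase, when a sister is present. The Fanconi pathway unhooks crosslinks ahead of forks, mismatch repair corrects copying errors, and ATM, ATR, CHEK1 and CHEK2 hold the cycle while repair proceeds. Many of these genes are transcribed mainly in proliferating cells, where E2F factors, which Rb restrains until CDK4 and CDK6 phosphorylate it, drive their promoters.

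Library totals lay between 2873558 and 4158762 counts, and levels are given in CPM, counts scaled to the library total. The floor used here for a gene at 0, 3 counts over a group, corresponds to 0.255 to 0.300 CPM, a limit for counting error only. The line labels were checked against mesenchymal markers. VIM, CD44, CAV1 and AXL summed to 2429 to 3276 CPM in the MDA-MB-231 libraries and all 4 were at 0 in every MDA-MB-453 library. ESR1, which encodes ER, was at 0 in 5 of the 8 groups and reached at most 2.19 CPM in a library. The mitochondrial share of the counts was 8.83% ± 0.213 (SD, n = 3) under DMSO and 12.2% ± 1.05 under abemaciclib in the MDA-MB-231 libraries, and 15.2% ± 0.650 and 23.8% ± 1.91 in MDA-MB-453.

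To assess how CDK4/6 inhibition affects repair gene transcripts, abemaciclib was first compared with DMSO in each line. In MDA-MB-231, 22 of the 42 genes tested (52.4%) fell and 0 rose, where a call is an adjusted P below 0.05 in edgeR's quasi-likelihood test. Over all 11314 genes tested in that line, 16.9% were called lower and 16.9% higher. In MDA-MB-453, 31 of 43 genes (72.1%) fell and 0 rose, against 19.4% called lower and 16.6% called higher over all 11080 genes. Summed over the 44 genes, the level was 2515 to 2639 CPM under DMSO and 1734 to 1832 CPM under abemaciclib in the MDA-MB-231 libraries, and 2484 to 2547 CPM and 1359 to 1389 CPM in MDA-MB-453, so that the groups did not overlap in either line. The median log2 fold change of the tested genes was −0.51 in MDA-MB-231 cells and −1.29 in MDA-MB-453 cells, beside medians over all genes of −0.00053 and −0.0019. Gene counts from whole cultures cannot tell fewer cells of a cycle phase from less RNA per cell.

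The 22 genes that fell in MDA-MB-231 were all among those that fell in MDA-MB-453. They made up 22 of the 30 genes (73.3%) called lower in MDA-MB-453 and tested in both lines. Over all 9691 genes tested in both lines, 823 were lower in both, which is 45.8% of the lower genes of MDA-MB-231 and 41.3% of those of MDA-MB-453. PALB2, RAD51C, RAD54B, NBN, FANCB, FANCE, PRKDC, POLQ and CHEK2 were called lower in MDA-MB-453 alone, which does not by itself show a difference between lines. Called lower in neither line were RAD51B, RAD51D, MRE11, RAD50, FANCC, FANCF, FANCL, FANCM, MSH3, PMS2, LIG4, ATM and ATR. Low counts kept 3 genes out of a test. PMS2 held 20 counts under DMSO and 15 under abemaciclib over the MDA-MB-231 libraries, CHEK2 held 18 and 28, and LIG4 held 5 and 9 over those of MDA-MB-453.

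**Figure D1:**
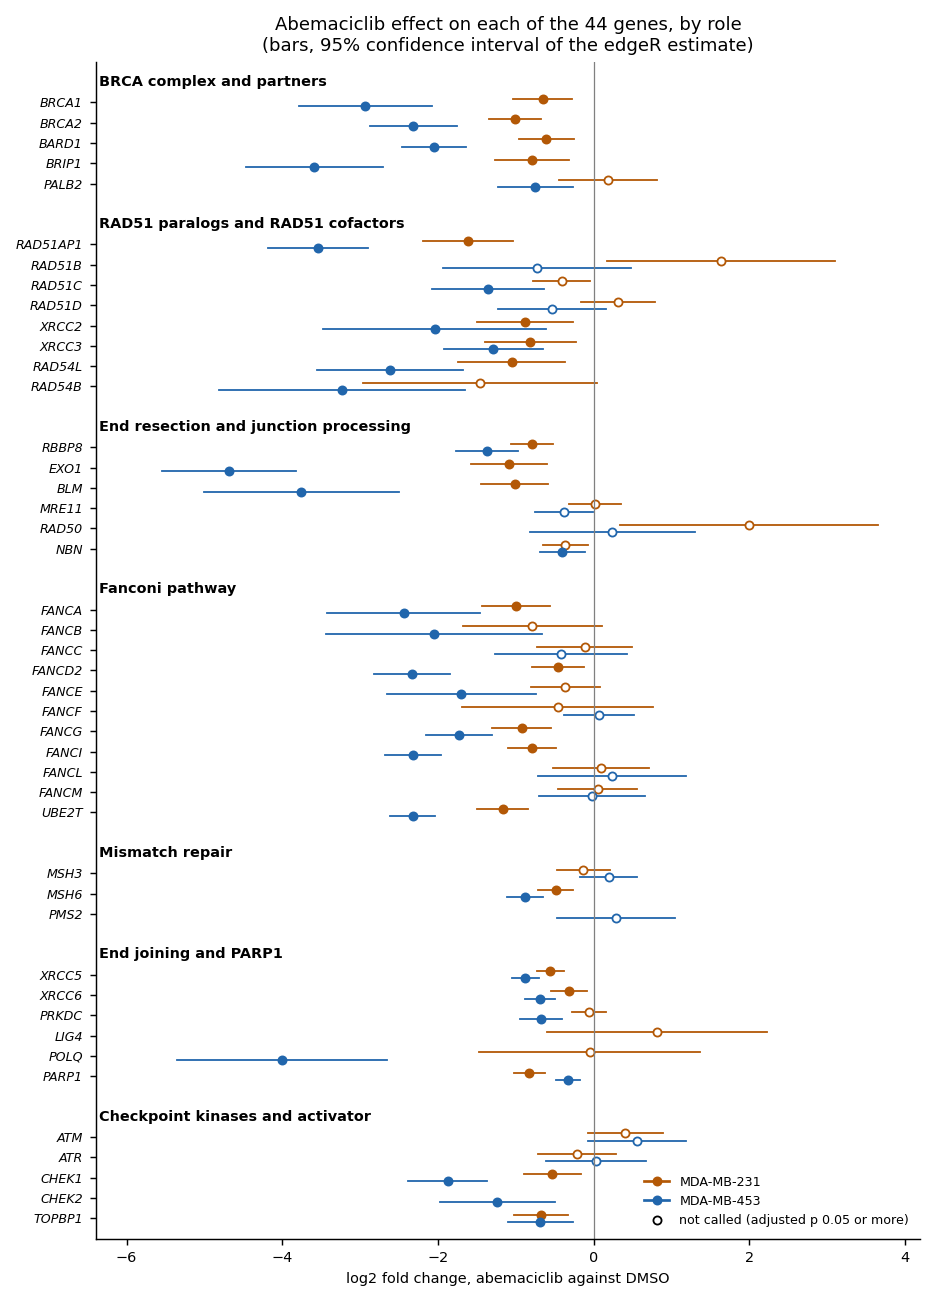
Log2 fold change of each of the 44 genes for abemaciclib against DMSO, grouped by role (x axis, log2 scale; points, edgeR estimates; bars, 95% confidence intervals; filled points, adjusted P below 0.05; orange, MDA-MB-231; blue, MDA-MB-453). Every filled point lies left of 0, with 22 in MDA-MB-231 cells and 31 in MDA-MB-453 cells, and the intervals of ATM, ATR, FANCL and FANCM include 0 in both lines.

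The BRCA1 and BRCA2 complexes were among the groups with the largest decreases. BRCA1, a ubiquitin ligase subunit that starts homologous recombination, BARD1, its obligate partner, BRIP1, a helicase bound to BRCA1, and BRCA2, which loads the recombinase on resected DNA, fell in both lines, and PALB2, which bridges BRCA1 and BRCA2, was called in MDA-MB-453. The median log2 fold change of the 5 genes was −0.66 in MDA-MB-231 cells and −2.31 in MDA-MB-453 cells. BRCA1 (GRCh38 chromosome 17, 43044295 to 43170245) was at 43.0, 42.3 and 39.1 CPM under DMSO and 22.4, 28.6 and 28.0 CPM under abemaciclib in the MDA-MB-231 libraries. In MDA-MB-453 it was at 14.9, 12.0 and 20.2 CPM under DMSO and 2.02, 1.37 and 2.40 CPM under abemaciclib. The groups did not overlap in either line, and the log2 fold changes were −0.66 (SE 0.19, adjusted P = 0.00585) and −2.93 (SE 0.43, adjusted P = 2.57e-07).

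BRCA2 (chromosome 13, 32315086 to 32400268) went from 76.5, 68.6 and 74.2 CPM to 30.4, 34.3 and 44.1 CPM in MDA-MB-231. The same gene went from 26.6, 31.5 and 34.1 CPM to 6.58, 7.12 and 3.61 CPM in MDA-MB-453. All treated libraries were below all DMSO libraries, at log2 fold changes of −1.01 (SE 0.17) and −2.31 (SE 0.28). BARD1 was at 46.3, 44.4 and 50.3 CPM under DMSO and 27.5, 34.6 and 30.4 CPM under abemaciclib in the MDA-MB-231 libraries, and at 39.5, 49.8 and 45.4 CPM against 9.61, 12.0 and 9.02 CPM in MDA-MB-453. BRIP1 (chromosome 17, 61679139 to 61863559) was at 29.6, 28.6 and 27.0 CPM against 15.9, 13.1 and 20.0 CPM in MDA-MB-231, and at 14.6, 12.0 and 16.6 CPM against 0.506, 1.37 and 1.503 CPM in MDA-MB-453. BRIP1 had the largest change of this group, −3.59 (SE 0.44) in MDA-MB-453, and its change of −0.79 in MDA-MB-231 was not called without abemaciclib replicate 2 (adjusted P = 0.0544). PALB2 had log2 fold changes of 0.18 (95% confidence interval −0.45 to 0.81) in MDA-MB-231 cells and −0.75 in MDA-MB-453 cells.

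**Figure D2:**
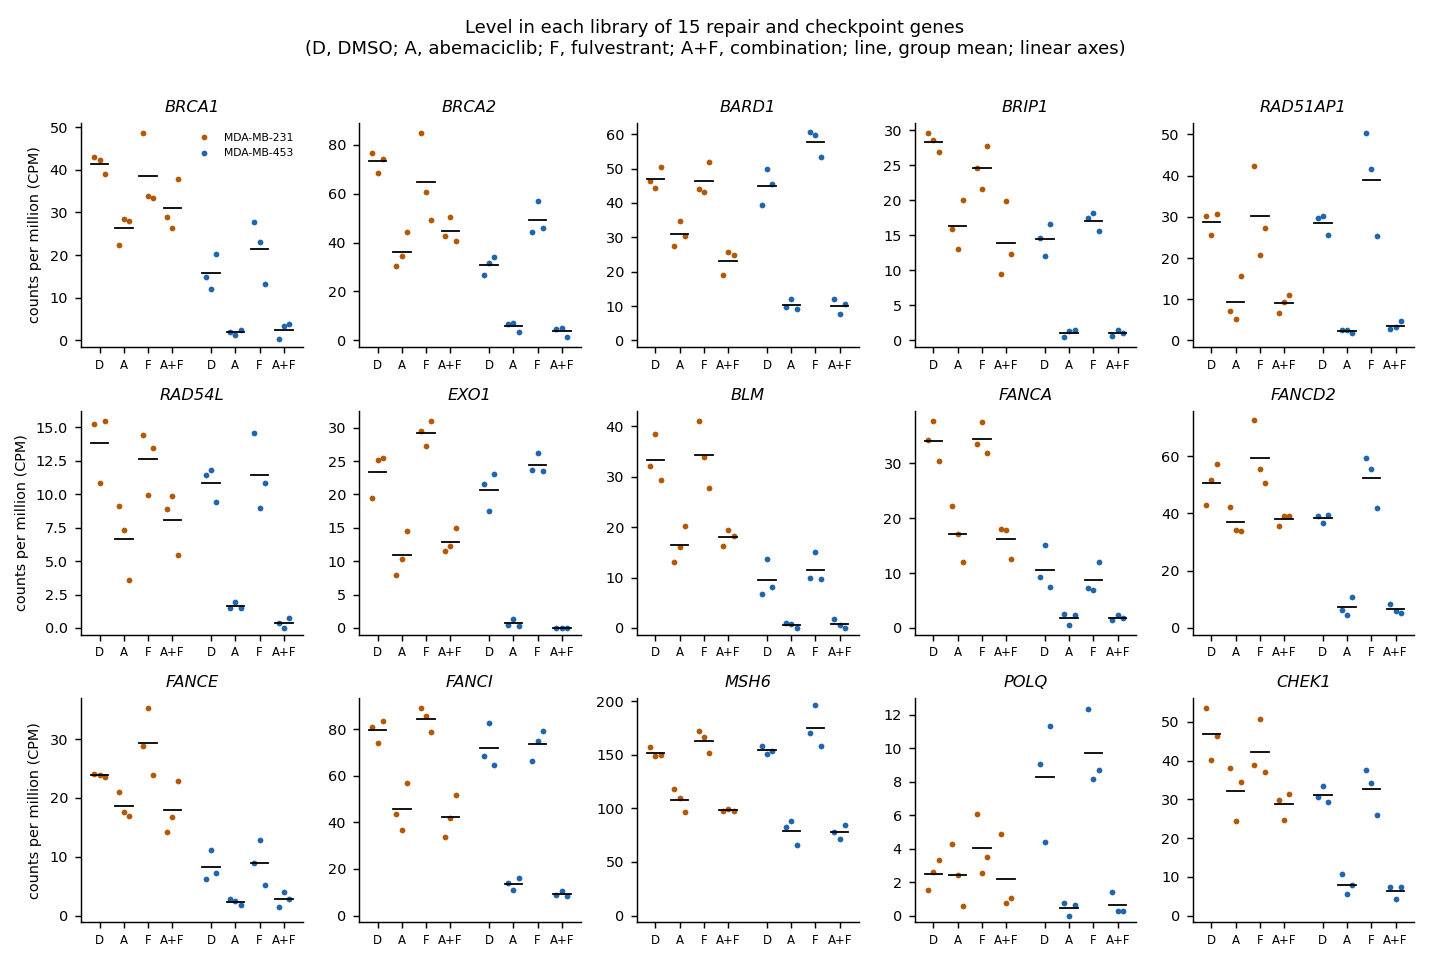
Level in every library of the 15 genes described library by library (y axes, CPM, linear; points, libraries; black lines, group means of 3; orange, MDA-MB-231; blue, MDA-MB-453). In MDA-MB-453 the abemaciclib and combination libraries of all 15 genes lie below the DMSO and fulvestrant libraries, and EXO1 is at 0 in the 3 combination libraries. The 15 were picked mostly for a large difference between lines, so this separation does not stand for the 44. RAD50 and ATR, not shown, overlap between DMSO and abemaciclib in MDA-MB-453.

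Among the called genes of the recombinase paralogs and cofactors, the cofactor RAD51AP1 had the largest change in both lines. RAD51AP1, which stimulates strand pairing, and RAD54L, a translocase that acts on the same filament, fell in both lines, as did the paralogs XRCC2 and XRCC3, while RAD51B and RAD51D were called in neither. RAD51AP1 (chromosome 12, 4538798 to 4560047) was at 30.2, 25.7 and 30.6 CPM under DMSO and 7.10, 5.17 and 15.6 CPM under abemaciclib in the MDA-MB-231 libraries, and at 29.8, 30.1 and 25.5 CPM against 2.53, 2.46 and 1.80 CPM in MDA-MB-453. Its DMSO levels were alike in the lines, and its log2 fold changes were −1.61 (SE 0.29, adjusted P = 1.98e-05) and −3.54 (SE 0.32, adjusted P = 9.1e-13). RAD54L was at 15.2, 10.8 and 15.5 CPM against 9.08, 7.29 and 3.56 CPM in MDA-MB-231, and at 11.4, 11.8 and 9.42 CPM against 1.52, 1.92 and 1.503 CPM in MDA-MB-453. Of the 44 genes, 9 overlap exons of another gene on their own strand and 25 do so on the other strand. Exons of RAD54L overlap those of LRRC41 on the other strand over 813 bases, and those of XRCC3 overlap KLC1 over 5756 bases. The strand setting of the counting is not given in the sources used here, so reads of such pairs cannot be told apart.

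RAD51C had log2 fold changes of −0.41 (adjusted P = 0.0779) and −1.36 (adjusted P = 0.0021) in MDA-MB-231 and MDA-MB-453. RAD54B, a relative of RAD54L, had −1.45 (adjusted P = 0.131) and −3.23 (adjusted P = 0.000929), and shares 3511 exon bases with FSBP on its own strand. The intervals of RAD51D, −0.17 to 0.79 in MDA-MB-231 cells and −1.23 to 0.16 in MDA-MB-453 cells, leave room for changes of either sign. RAD51B, with 0.606 to 1.52 CPM under DMSO in MDA-MB-231, had 1.64 (adjusted P = 0.0775) in that line and −0.73 in MDA-MB-453.

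Resection and junction processing were divided between genes with large changes and a complex that was called for 1 subunit in 1 line. RBBP8, the CtIP protein that starts resection, EXO1, the exonuclease that extends it, and BLM, a helicase that dissolves joined molecules, fell in both lines. EXO1 (chromosome 1, 241847967 to 241895148) was at 19.5, 25.1 and 25.5 CPM under DMSO and 7.95, 10.3 and 14.5 CPM under abemaciclib in the MDA-MB-231 libraries. In MDA-MB-453 it was at 21.6, 17.5 and 23.0 CPM under DMSO and 0.506, 1.37 and 0.301 CPM under abemaciclib. Its estimate in MDA-MB-453, −4.68 on the log2 scale (SE 0.43, adjusted P = 3.04e-12), was the largest of the 43 genes tested there, and that in MDA-MB-231 was −1.09 (SE 0.24). BLM was at 32.0, 38.5 and 29.4 CPM against 13.1, 16.1 and 20.3 CPM in MDA-MB-231, and at 6.72, 13.7 and 8.03 CPM against 1.01, 0.821 and 0 CPM in MDA-MB-453, with no overlap in either line. RBBP8 had log2 fold changes of −0.79 (SE 0.13) and −1.37 (SE 0.20).

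MRE11, RAD50 and NBN form the complex that senses broken ends. MRE11 had log2 fold changes of 0.02 (95% confidence interval −0.32 to 0.36) in MDA-MB-231 cells and −0.38 (−0.75 to −0.0018) in MDA-MB-453 cells, neither of them called. NBN had −0.36 (adjusted P = 0.0501) and −0.40 (adjusted P = 0.0239), so the call in MDA-MB-453 alone goes with nearly equal estimates. RAD50 had 2.00 (SE 0.82, adjusted P = 0.056) in MDA-MB-231, from 0.610, 0.292 and 0.909 CPM to 1.42, 3.95 and 2.19 CPM. RAD50 shares 8124 exon bases with a gene model without a symbol on its own strand, and its level in this table rests on few counts.

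In the Fanconi pathway, 5 of 11 genes fell in MDA-MB-231 and 7 of 11 in MDA-MB-453, beside 16.9% and 19.4% over all genes. FANCA and FANCG, subunits of the core ubiquitin ligase, UBE2T, its conjugating enzyme, and FANCD2 and FANCI, the pair that it modifies, fell in both lines. FANCC, FANCF, FANCL and FANCM, further subunits of the core and its DNA anchor, were called in neither. FANCA (chromosome 16, 89726683 to 89816977) was at 34.1, 37.7 and 30.3 CPM under DMSO and 22.1, 17.0 and 12.1 CPM under abemaciclib in the MDA-MB-231 libraries, and at 9.35, 15.1 and 7.48 CPM against 2.53, 0.547 and 2.40 CPM in MDA-MB-453. FANCD2 was at 43.0, 51.7 and 57.3 CPM against 42.3, 34.3 and 34.0 CPM, and at 39.2, 36.7 and 39.6 CPM against 6.33, 4.65 and 10.8 CPM. FANCI was at 81.1, 73.9 and 83.6 CPM against 43.7, 36.8 and 56.7 CPM, and at 68.7, 82.7 and 64.8 CPM against 13.9, 10.9 and 15.9 CPM. The groups of these 3 genes did not overlap in either line, although in MDA-MB-231 the DMSO and abemaciclib libraries of FANCD2 came within 1 CPM of each other.

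The log2 fold changes of FANCD2 were −0.46 (SE 0.17, adjusted P = 0.0301) and −2.33 (SE 0.24, adjusted P = 9.02e-11), and those of FANCI were −0.79 (SE 0.15) and −2.32 (SE 0.18). UBE2T had −1.17 (SE 0.16) and −2.32 (SE 0.14), the smallest errors of the group in MDA-MB-453. FANCE, a core subunit that contacts FANCD2, was at 24.1, 23.9 and 23.6 CPM against 21.0, 17.6 and 17.0 CPM in MDA-MB-231 (adjusted P = 0.214), and at 6.14, 11.2 and 7.201 CPM against 2.78, 2.46 and 1.80 CPM in MDA-MB-453, where it fell by 1.70 on the log2 scale. FANCL and FANCM had estimates of 0.10 and 0.05 in MDA-MB-231 and of 0.23 and −0.02 in MDA-MB-453, with intervals reaching from −0.71 to 1.18. Exons of FANCA overlap those of ZNF276 on the other strand over 2409 bases. FANCG shares 183 exon bases with a gene model on its own strand. That model matches 146 bases at 100% within the last 300 transcript bases of FANCG, so that the counts of FANCG are uncertain.

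Of the 3 mismatch repair genes, MSH6 was called lower in both lines and MSH3 in neither, and PMS2 was tested in MDA-MB-453 alone, without a call. MSH6, whose product recognises single mismatches, was at 157, 149 and 149 CPM under DMSO and 118, 109.7 and 96.5 CPM under abemaciclib in the MDA-MB-231 libraries, and at 158, 151 and 154 CPM against 82.7, 88.4 and 65.8 CPM in MDA-MB-453. It fell by 0.49 (SE 0.11) and by 0.88 (SE 0.11) on the log2 scale, without overlap of the groups. MSH3, the subunit for larger loops, had −0.13 (95% confidence interval −0.47 to 0.21) and 0.19 (−0.17 to 0.55). PMS2 had 0.29 (−0.47 to 1.05) in MDA-MB-453, and its last 300 transcript bases match another gene model at 100% over 295 bases. The exons of MSH6 overlap those of FBXO11 and a pseudogene on the other strand over 4288 bases.

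The end-joining genes held the Ku pair, with modest changes, and POLQ, with one of the largest. XRCC5 and XRCC6, the Ku subunits, fell by 0.56 and 0.32 on the log2 scale in MDA-MB-231 and by 0.87 and 0.69 in MDA-MB-453. PRKDC, the DNA-PK kinase, had −0.06 (95% confidence interval −0.28 to 0.15) in MDA-MB-231 cells and −0.67 (adjusted P = 6.17e-05) in MDA-MB-453 cells. POLQ, the polymerase of microhomology-mediated joining, was at 1.52, 2.63 and 3.33 CPM under DMSO and 4.26, 2.43 and 0.548 CPM under abemaciclib in the MDA-MB-231 libraries, where the groups overlapped. In MDA-MB-453 it was at 9.06, 4.38 and 11.4 CPM against 0.759, 0 and 0.601 CPM, or −4.01 on the log2 scale (SE 0.67, adjusted P = 4.12e-06). PARP1, which binds single-strand breaks, fell more in MDA-MB-231 than in MDA-MB-453 by point estimate. It was at 369, 379.9 and 342 CPM against 199, 185 and 230.5 CPM in MDA-MB-231 (log2 fold change −0.83, SE 0.10), and at 689, 663 and 603 CPM against 477, 488 and 503 CPM in MDA-MB-453 (log2 fold change −0.33, SE 0.08).

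Of the checkpoint kinases, CHEK1 was called in both lines, CHEK2 in MDA-MB-453 and ATM and ATR in neither. CHEK1, the effector downstream of ATR, was at 53.6, 40.3 and 46.4 CPM under DMSO and 38.0, 24.3 and 34.5 CPM under abemaciclib in the MDA-MB-231 libraries, and at 30.7, 33.4 and 29.4 CPM against 10.6, 5.47 and 7.82 CPM in MDA-MB-453. It fell by 0.53 (SE 0.18) and by 1.88 (SE 0.25) on the log2 scale, without overlap of the groups. TOPBP1, which activates ATR, fell by 0.68 in each line. ATM had 0.41 (95% confidence interval −0.07 to 0.89) and 0.56 (−0.08 to 1.19), and ATR had −0.21 (−0.71 to 0.29) and 0.03 (−0.61 to 0.68), so neither apical kinase was called. CHEK2 had −1.24 (adjusted P = 0.00627) in MDA-MB-453, a call lost without DMSO replicate 1 (adjusted P = 0.087). The last 300 bases of its transcript match at least 5 other gene models, at 97.7% for the longest match, so that its counts are uncertain.

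Of the 22 calls in MDA-MB-231, 15 stood in each of 6 refits that left out 1 DMSO or abemaciclib library, and the other 7 were each lost in 1 to 4 of them. FANCD2 and XRCC6 lost theirs without replicate 2 or 3 of either group, RAD54L without replicate 3 of either group, XRCC2 without DMSO replicate 2 or abemaciclib replicate 1, XRCC3 without these or DMSO replicate 3, CHEK1 without DMSO replicate 1 or 3 or abemaciclib replicate 2, and BRIP1 as given above. DESeq2 did not call FANCD2, XRCC2, XRCC3 or CHEK1. Calls were gained for RAD50 and RAD51C without abemaciclib replicate 1, for RAD51B without abemaciclib replicate 3, and for NBN without DMSO replicate 2 or abemaciclib replicate 3. Of the 31 calls in MDA-MB-453, 25 stood in every such refit. XRCC2 lost its call without DMSO replicate 1 or 3 or abemaciclib replicate 1, NBN without DMSO replicate 3 or abemaciclib replicate 2, PALB2 without DMSO replicate 2 or abemaciclib replicate 3, FANCB without replicate 1 of either group, TOPBP1 without DMSO replicate 2 or abemaciclib replicate 1, and CHEK2 without DMSO replicate 1.

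The decreases went with a lower level of genes used in mitosis and S phase. The level of 12 cell cycle markers, MKI67, TOP2A, CCNA2, CCNB1, CCNB2, CDK1, PLK1, BUB1, AURKB, TPX2, KIF11 and UBE2C, was in sum 4107 to 4210 CPM under DMSO and 1902 to 2231 CPM under abemaciclib in the MDA-MB-231 libraries. In MDA-MB-453 the sums were 1397 to 1423 CPM and 47.5 to 60.2 CPM. All 12 fell in both lines, at median log2 fold changes of −1.06 and −5.17, and none was at 0 in any group. The abemaciclib mean of the summed markers was thus 48.5% of the DMSO mean in MDA-MB-231 cells and 3.70% in MDA-MB-453 cells, beside 68.5% and 54.6% for the 44 repair genes. The part of the cycling fraction and of the mitochondrial share in the changes of the repair genes was not tested.

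To ask whether the response differed between the lines, the log2 effect of abemaciclib for MDA-MB-231 was subtracted from that for MDA-MB-453 within 1 model fitted to all 24 libraries. All 44 genes entered, and 19 (43.2%) were called lower and 1 (PARP1) higher, against 13.0% called lower and 7.72% called higher over all 12750 genes tested. The median difference was −0.93 for the 44 genes and −0.07 for all genes. Of the 41 genes tested within both lines, 35 had the more negative estimate in MDA-MB-453, where 5028 of 9691 genes (51.9%) did so overall. The largest differences were those of POLQ at −3.95 (SE 1.04, adjusted P = 0.00398), EXO1 at −3.59 (SE 0.51, adjusted P = 4.17e-07), BRIP1 at −2.79 (SE 0.49, adjusted P = 1.85e-05), BLM at −2.73 (SE 0.62, adjusted P = 0.000791) and BRCA1 at −2.27 (SE 0.46, adjusted P = 0.000205).

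RAD51AP1, FANCD2, RAD54L, FANCI, FANCA, BARD1, CHEK1, FANCE and BRCA2 followed, with differences from −1.92 to −1.30, and UBE2T, RAD51C, FANCG, PRKDC and XRCC5 ended the list, from −1.15 to −0.31. PARP1 was the exception, at 0.51 (SE 0.12, adjusted P = 0.00148). Among the 9 genes called lower in MDA-MB-453 alone, RAD51C, FANCE, PRKDC and POLQ were called for the difference and PALB2, RAD54B, NBN, FANCB and CHEK2 were not. NBN had a difference of −0.03 with a 95% confidence interval from −0.44 to 0.38, and TOPBP1 one of −0.0020 with an interval from −0.48 to 0.47. Leaving out 1 library at a time kept 13 of the 19 lower calls and that of PARP1 in all 12 refits. RAD54L, XRCC5, FANCE, FANCG, FANCA and RAD51C lost theirs in 2 to 8 of the 12, with adjusted P reaching 0.162. The difference moved with the cell cycle markers, all 12 of which were also called lower for it, at a median of −4.10.

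The starting levels of the genes under DMSO also differed between the lines. In MDA-MB-453 against MDA-MB-231, 10 of 44 genes were called higher and 20 lower, beside 34.3% higher and 35.6% lower over all genes. The share of repair genes called in each direction, 22.7% and 45.5%, was thus to be read against a table in which most genes differed between the lines. Higher in MDA-MB-453 were CHEK2 at a log2 difference of 2.75 (SE 0.53), FANCF at 2.69 (SE 0.35), RAD50 at 2.56 (SE 0.71) and RAD51B at 2.03 (SE 0.68), followed by PMS2, POLQ, PALB2, PARP1, XRCC6 and UBE2T. Lower in MDA-MB-453 were XRCC2 at −2.22 (SE 0.40), RAD51C at −1.76 (SE 0.22), BLM at −1.74 (SE 0.29), FANCA at −1.61 (SE 0.28), FANCE at −1.47 (SE 0.29), BRCA1 at −1.33 (SE 0.25), RBBP8 at −1.27 (SE 0.15) and BRCA2 at −1.18 (SE 0.20). FANCF, a core Fanconi subunit, was at 2.74, 2.34 and 4.54 CPM in MDA-MB-231 and at 19.6, 21.1 and 19.1 CPM in MDA-MB-453, with no overlap. BARD1, RAD51AP1, EXO1 and FANCI, all called for the difference in response, had DMSO differences of 0.00061, 0.05, −0.11 and −0.08, none of them called. CHEK2 and PMS2 have near-identical copies of their last transcript bases, so that their levels are uncertain. RAD50 and RAD51B were under 2 CPM in every DMSO library of MDA-MB-231. POLQ and RAD51B lost their calls without DMSO replicate 3 of MDA-MB-453, and FANCC, FANCL, FANCM, MSH3, ATR, CHEK1 and TOPBP1, all called lower, lost theirs in 2 to 4 of 6 such refits.

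**Figure D3:**
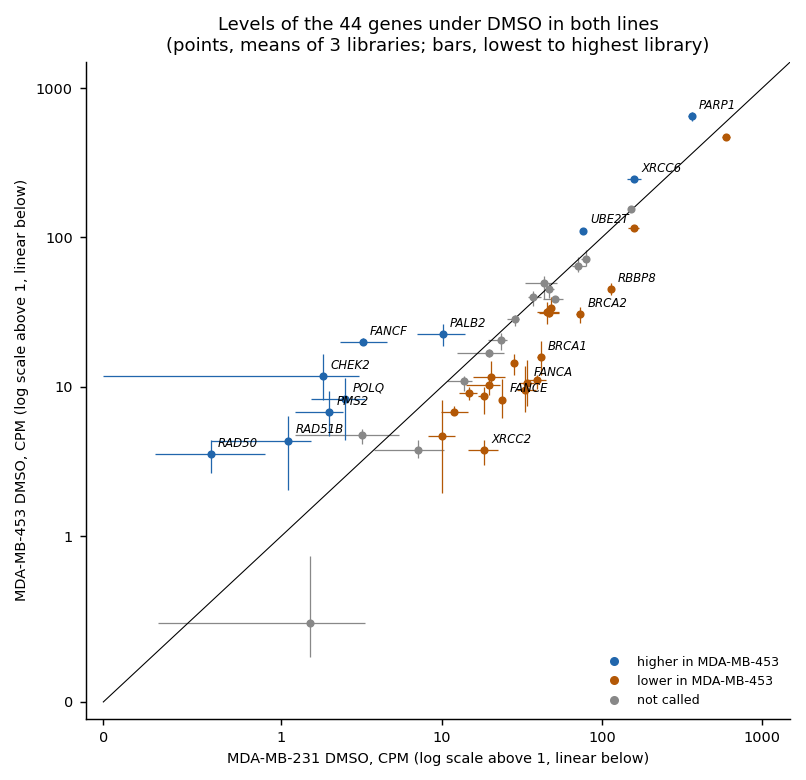
Levels of the 44 genes under DMSO in MDA-MB-231 (x axis, CPM) and MDA-MB-453 (y axis, CPM), both axes logarithmic above 1 CPM and linear below (points, means of 3 libraries; bars, lowest to highest library; diagonal, equal level). Blue points (10 genes) were called higher and orange points (20 genes) lower in MDA-MB-453, and the higher group includes 6 genes below 5 CPM in MDA-MB-231.

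The combination was compared with DMSO and with abemaciclib alone, to ask whether fulvestrant added to the response in lines classed as ER-negative. The counts do not measure ER protein or its degradation. In MDA-MB-231, 20 of 42 genes fell and 1, RAD50, rose under the combination, against 18.3% and 17.0% of all genes. In MDA-MB-453, 27 of 43 fell and 0 rose, against 20.0% and 17.6%. These comparisons share the DMSO libraries with those of abemaciclib, so their likeness is not independent evidence. In MDA-MB-231, 19 genes were called lower in both comparisons, BRCA1, RAD54L and TOPBP1 only in that of abemaciclib and RAD51C only in that of the combination, none of which was shown to differ between the treatments. In MDA-MB-453, 27 were called in both and PALB2, XRCC2, FANCB and CHEK2 only in that of abemaciclib. The median log2 fold change was −0.43 and −0.98 in the lines. Single left-out libraries ended the calls of FANCD2, XRCC2 and XRCC3 in the first line and, in MDA-MB-453, of XRCC3 without DMSO replicate 3 or combination replicate 2 and of FANCE without DMSO replicate 2. Calls of higher genes were gained in MDA-MB-453, where FANCL (1.08, adjusted P = 0.0526) was called without mitochondrial genes, without the low-count filter and with only the groups compared, and it was 1 of 2 genes called higher without DMSO replicate 1 or combination replicate 2.

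RAD50 was at 3.23, 5.29 and 5.15 CPM under the combination in MDA-MB-231, and its estimate of 2.85 on the log2 scale (SE 0.77, adjusted P = 0.00315) rests on DMSO libraries below 1 CPM. EXO1 was at 0, 0 and 0 CPM in the combination libraries of MDA-MB-453, against 221 counts under DMSO, which is at least 70.6-fold lower with 3 counts over the group as the floor. RAD54L was at 0.348, 0 and 0.766 CPM there, and RAD54B held 3 counts against 51, a ratio of 16.3 (exact 95% interval 5.27 to 81.6, counting error only). BRCA1 was at 28.8, 26.5 and 37.9 CPM in MDA-MB-231 without a call (adjusted P = 0.0706), and at 0.348, 3.48 and 3.83 CPM in MDA-MB-453. With EXO1 set to its bound the median of MDA-MB-453 stayed −0.98.

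Against abemaciclib alone, the combination called 0 of 42 genes in MDA-MB-231 and 0 of 43 in MDA-MB-453, with medians of 0.04 and −0.0081. The background was 0.0265% of all genes in MDA-MB-231 cells and 2.46% in MDA-MB-453 cells. At an unadjusted P below 0.05 there were 3 and 7 genes. DESeq2 called 0, but gave an adjusted P to only 8 of the genes in MDA-MB-231 cells and 13 in MDA-MB-453 cells. EXO1 in MDA-MB-453 was nearest to a call, at an adjusted P of 0.0647, and passed at 0.0384 without abemaciclib replicate 1.

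Fulvestrant alone called 0 of 42 genes in MDA-MB-231 and 0 of 43 in MDA-MB-453, against 0.0% and 1.41% of all genes. These background shares rest on single libraries. Over all genes, 205 were called in MDA-MB-231 without fulvestrant replicate 1 in place of 0, and in MDA-MB-453 786 without fulvestrant replicate 3 and 5 without fulvestrant replicate 2 in place of 156, and each of the other left-out libraries of that comparison gave 18 to 45. Of the 44 genes, the call of MSH3 without fulvestrant replicate 1 of MDA-MB-231 (adjusted P = 0.0224) was the only one gained in these refits. At an unadjusted P below 0.05 there were 4 and 5 genes. DESeq2 called 0 of 44 in MDA-MB-231 and 0 of the 10 to which it gave an adjusted P in MDA-MB-453. The median log2 fold change was 0.0060 in MDA-MB-231, with 22 of 42 genes above 0, and 0.13 in MDA-MB-453, with 28 of 43 above 0 beside 47.3% of all genes. BRCA2 was at 44.4, 57.0 and 46.0 CPM under fulvestrant in MDA-MB-453, each above its DMSO libraries, a log2 fold change of 0.62 (95% confidence interval 0.17 to 1.07, adjusted P = 0.163). Its levels in MDA-MB-231, 84.6, 60.8 and 49.4 CPM, overlapped those under DMSO. The cell cycle markers of MDA-MB-453 summed to 1578 to 1908 CPM under fulvestrant, and 2 of the 12 were called higher there, whose part in the values of the repair genes was not tested.

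**Figure D4:**
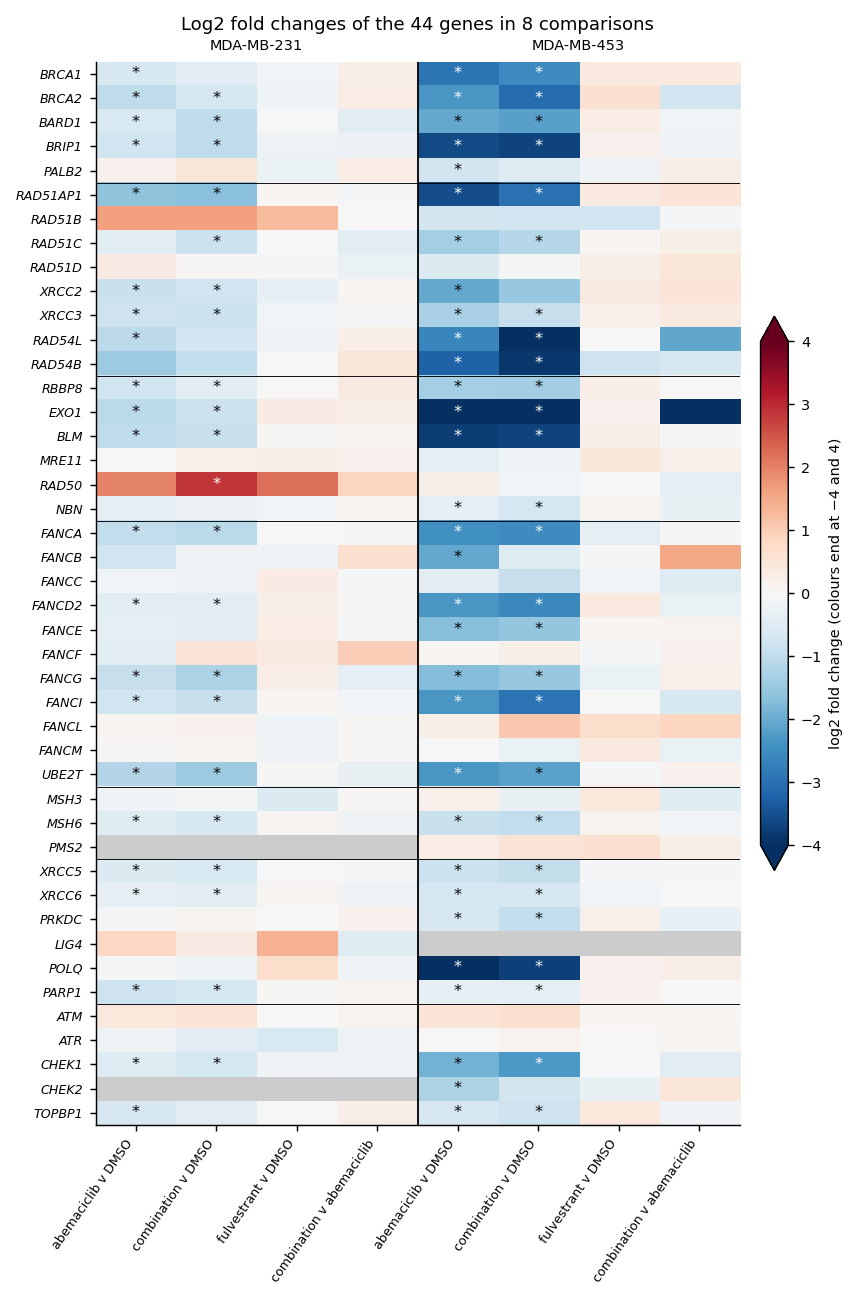
Log2 fold changes of the 44 genes (rows, by role) in 8 comparisons (columns), shown as colours from blue (lower) to red (higher), with asterisks at adjusted P below 0.05 and grey where low counts prevented a test. Asterisks fill the columns of abemaciclib and of the combination against DMSO (22 and 21 genes in MDA-MB-231 cells, 31 and 27 in MDA-MB-453), and the fulvestrant and combination against abemaciclib columns hold 0.

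Since many of the genes moved together, their promoters were searched for sequences known from cell cycle genes. The letters searched, on both strands of the 250 bases before the start, were TTTCCCGC, TTTGGCGC, TTTCGCGC and TTTGCCGC (E2F-like), TTTGAA and TTCGAA (CHR-like) and CCAAT. RefSeq promoters were matched for 39 of the 44 genes. Some of these windows lie away from the start of the canonical transcript. That of BRCA1 spans chromosome 17, 43170278 to 43170577, while its canonical start is at 43125364. E2F-like letters stood in 4 of the 39 (10.3%), beside 2.79% of all 27305 promoters and 4.6% of those of genes tested here. They stood in 1 of 20 promoters of genes lower in both lines (5.00%) and in 3 of 13 of genes lower in neither (23.1%). CHR-like letters were found in 5 of 39 (12.8%), which lies below the 14.6% of all promoters and above the 9.52% of those of genes tested here. They stood in 2 of 20 promoters of genes lower in both lines (10.0%) and in 2 of 13 of genes lower in neither (15.4%). CCAAT was found in 17 of 39 (43.6%), beside 33.0% of all promoters and 35.9% of those of genes tested here. Starts of the canonical transcripts, a choice made after seeing the data, gave a window for all 44 genes. These windows held E2F-like letters in 4 (9.09%), CHR-like letters in 5 (11.4%) and CCAAT in 20 (45.5%). Among coding genes tested in either line the shares were 4.75%, 8.77% and 35.2%.

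The stretches below, from hg38 and on the strand of the gene, show these matches because they stand on both sides of the response. FANCA fell in both lines, and FANCC, MSH3 and PMS2 were called in neither. Capitals mark a single match of E2F-like letters per gene, in either orientation. FANCC holds another match at chr9:95317863-95317892. In MSH3 another match, in the other orientation, overlaps the marked letters and runs past them.
FANCA, chr16:89816801-89816830, minus strand: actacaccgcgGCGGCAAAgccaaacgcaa
FANCC, chr9:95317737-95317766, minus strand: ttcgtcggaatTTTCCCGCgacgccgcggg
MSH3, chr5:80654534-80654563, plus strand: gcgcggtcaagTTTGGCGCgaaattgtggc
PMS2, chr7:6009131-6009160, minus strand: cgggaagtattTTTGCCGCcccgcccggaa

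CHR-like letters, again in capitals, stood before BRIP1 and UBE2T, which fell in both lines, before POLQ, which fell in MDA-MB-453, and before FANCC and ATM, which were called in neither.
BRIP1, chr17:61863749-61863778, minus strand: tatcgccggtTTCAAAagtcaaactgagac
UBE2T, chr1:202342072-202342101, minus strand: cgcgcgctctcaTTTGAAtgcgtgagcgtt
POLQ, chr3:121546201-121546230, minus strand: atggccttcctaTTCAAAccagaaatggac
FANCC, chr9:95317930-95317959, minus strand: atTTTGAAcagaatatggaagaagccagcg
ATM, chr11:108223035-108223064, plus strand: agtcacgcagggTTTGAAccggaagcggga
A match describes letters in this window alone, and a promoter without one may carry other forms of the site or carry it past the start.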

How the data were processed

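Transcript 3′ ends were sequenced in 24 libraries made with the QuantSeq forward kit. According to the study's methods, BBDuk trimming, STAR alignment (hg38) and featureCounts (GENCODE v35) were the steps of the authors. Their deposited values are raw gene counts, whole numbers per gene name without normalisation. Strand, multiple alignments and duplicates are not given in the sources used here. One line names no gene and holds 0 counts.

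Tests used edgeR 4.0.16 under R 4.3.3 (TMM scaling, filterByExpr, quasi-likelihood tests, 2-sided), in 1 model of 12 libraries per line and, between lines, 1 of 24. P values were adjusted by Benjamini-Hochberg over all genes tested. DESeq2 1.42.0 served as an alternative, and the models were tested on simulated data. The biological coefficient of variation was 13.4%, 12.6% and 13.1% in the models of MDA-MB-231, MDA-MB-453 and both lines. Replicates were compared in 24 pairs over genes with at least 20 counts, and chi-square per degree of freedom was 2.64 to 8.65, so no library was a copy of another of its group. Positions and overlaps come from GENCODE v44 (GRCh38) and promoters from RefSeq.

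The 44 genes, their roles and the other lists were chosen with earlier results of these data known. Values in every library are given for up to 14 genes called for the difference between lines, for genes called higher under abemaciclib (0 genes) and for the gene with the largest change in each role. Values of other genes, and RAD50, FANCF and PARP1 by library, were added after their values were seen. Alternatives were DESeq2, its size factors, no mitochondrial genes, no low-count filter, a replicate block, only the groups compared, TMM-scaled CPM and leaving out each library. One further list of line markers is not reported here.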

Additional observations from a re-analysis of the deposited data

Results flagged for a closer look

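The abemaciclib effect differed between the lines, by the interaction test over all 24 libraries (edgeR, adjusted p below 0.05), for 20 of the 44 genes. On the log2 scale, with the MDA-MB-231 effect subtracted from the MDA-MB-453 effect, the values were −3.95 for POLQ, −3.59 for EXO1, −2.79 for BRIP1, −2.73 for BLM, −2.27 for BRCA1, −1.92 for RAD51AP1, −1.87 for FANCD2, −1.55 for RAD54L, −1.52 for FANCI, −1.44 for FANCA, −1.43 for BARD1, −1.34 for CHEK1, −1.33 for FANCE, −1.30 for BRCA2, −1.15 for UBE2T, −0.94 for RAD51C, −0.79 for FANCG, −0.60 for PRKDC, −0.31 for XRCC5 and 0.51 for PARP1. POLQ rested on 88 counts under DMSO in MDA-MB-453 and on 0.759, 0 and 0.601 CPM under abemaciclib there. In MDA-MB-231 it was at 1.52, 2.63 and 3.33 CPM under DMSO and 4.26, 2.43 and 0.548 CPM under abemaciclib, so its difference rests on few counts. The mitochondrial share and the cell cycle markers moved with the same contrast. With mitochondrial genes left out of the fit, 23 genes were called in place of 20. The part of the share and of the markers was otherwise not tested.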

How the results depend on the processing

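Of the counts of called genes in the 10 comparisons, all but 3 recomputed values stayed within 1.5 times the main one. Of the recomputed log2 fold changes of the 15 genes shown by library, 1786 kept their call or lack of one, 43 lost and 11 gained a call. Where the main fit or the refit gave a call, 0 changed sign. Changes of sign between uncalled estimates were not counted. These 15 were mostly chosen for a large difference between lines and do not stand for the 44. The 1 count outside that range apart from left-out libraries came from fitting only the groups compared, which called 1 gene (BRCA2) for fulvestrant in MDA-MB-453 in place of 0. Left-out libraries gave 17 to 22 calls for abemaciclib in MDA-MB-231 cells and 28 to 30 in MDA-MB-453 cells, 18 to 21 and 26 to 29 for the combination against DMSO, 0 to 1 (MSH3, without fulvestrant replicate 1) and 0 to 0 for fulvestrant, 0 to 0 and 0 to 1 (EXO1) for the combination against abemaciclib, 14 to 23 for the difference between lines and 22 to 29 for DMSO between lines. DESeq2 called 25 genes for the difference between lines, and no low-count filter 15, against 20. Without mitochondrial genes the counts for abemaciclib were 22 and 31. Same-numbered libraries did not deviate together (correlations of −0.132 to 0.0351 in MDA-MB-231 cells and −0.117 to 0.0671 in MDA-MB-453 cells over 18 pairs each). With a replicate block the calls were 23 and 31 for abemaciclib and 18 for the difference. Levels on TMM-scaled CPM moved by more than 1 SD in 3 of 120 group means. Low counts kept PMS2, CHEK2 and LIG4 out of a test in 1 line each.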

Other observations

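A further 57 repair genes, listed from general knowledge but with earlier results of these data known, held 55 that were tested in each line. ERCC5 and MUTYH were too low. Abemaciclib was called lower for 21 of the 55 in MDA-MB-231 and for 18 in MDA-MB-453, and higher for 0 and 4 (over all genes, 16.9% lower and 16.9% higher in the first line, 19.4% and 16.6% in the other), at medians of −0.32 and −0.27. Of the genes lower in either line, 11 were lower in both, which is 52.4% of those of MDA-MB-231 and 61.1% of those of MDA-MB-453, beside 45.8% and 41.3% over all genes. The 3 called with the largest changes in MDA-MB-231 were RAD9A, a subunit of the checkpoint clamp, at −1.70 (SE 0.43), H2AX, the histone marked at breaks, at −1.55 (SE 0.13), and CLSPN, the adaptor that presents CHEK1 to ATR, at −1.34 (SE 0.13). In MDA-MB-453 they were CLSPN at −5.92 (SE 0.32), RMI2, a partner of BLM, at −4.31 (SE 0.24), and EME1, a subunit of a junction nuclease, at −3.43 (SE 0.65).

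CLSPN was at 182 to 196 CPM under DMSO and 66.2 to 89.3 CPM under abemaciclib in the MDA-MB-231 libraries, and at 48.2 to 59.4 CPM and 0.301 to 1.27 CPM in MDA-MB-453. It was also the 1 gene of this list called under fulvestrant, in MDA-MB-453, at 0.68 (SE 0.17, edgeR adjusted p = 0.0334). RMI2 was at 73.1 to 79.9 CPM and 1.92 to 5.57 CPM in MDA-MB-453, while in MDA-MB-231 its DMSO range of 7.93 to 14.8 CPM lay within that under abemaciclib, 6.58 to 15.0 CPM, at both ends. Called higher in MDA-MB-453 were REV3L, the catalytic subunit of a bypass polymerase, at 1.01 (SE 0.19), XPC, the damage sensor of nucleotide excision repair, at 0.76 (SE 0.25), MLH3 at 0.75 (SE 0.28) and POLK at 0.70 (SE 0.23). By group, 9 of 14 clamp, mediator and checkpoint partner genes were lower in MDA-MB-231 cells and 5 in MDA-MB-453 cells. Of 10 nucleotide excision genes 2 were lower in MDA-MB-231 cells and 0 in MDA-MB-453 cells, beside 16.9% and 19.4% over all genes. Summed levels under abemaciclib in MDA-MB-231 and MDA-MB-453 were 57.39% and 50.29% of DMSO for the first group and 97.1% and 90.55% for the second. They were 78.55% and 58.71% for base excision and single-strand breaks, 83.35% and 47.93% for single-strand binding, and 74.02% and 42.71% for junction nucleases. Lesion bypass stood at 89.99% and 117.6%, and other end joining and mismatch repair at 71.47% and 112.5%.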
